A study of Mus musculus with 19 samples.

Results

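Early innate lymphoid progenitors (EILP) were compared with the stage before them, the all-lymphoid progenitors (ALP), and with the stage after them, the innate lymphoid cell progenitors (ILCp). Of the 19 RNA-seq libraries, 7 were EILP, 7 ALP and 5 ILCp, and the genes examined were those that EILP expressed above both or below both of its neighbours. Of 18607 genes measured, 180 were called above both stages and 228 below both stages.

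All cells were sorted from bone marrow of C57BL/6 mice. ALP (Tcf7EGFP/+ mice) were lineage-low and Ly-6D-low and carried Kit, IL-7Rα and high Flt3. EILP (Tcf7EGFP/+) were lineage-low, Ly-6D-low, CD122-low and Kit-positive, with high GFP and low Thy-1.2, and their IL-7Rα was low or intermediate. ILCp shared the lineage, Ly-6D, CD122, Kit and GFP gates with EILP and carried Thy-1.2, high IL-7Rα and α4β7 integrin. The GFP of ILCp 1, 2 and 3 came from Tcf7EGFP/+ mice and that of ILCp 4 and 5 from Plzf-cre-GFP/+ mice, in which GFP reports the gene Zbtb16. Mice of both strains carried 1 modified copy of the reporter gene, and no group lacked a reporter allele. No label ties the libraries to separate animals. The p-values therefore reflect how much these samples vary, and that variation may be technical.

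Innate lymphoid cells are tissue-resident lymphocytes without rearranged antigen receptors. They arise in bone marrow from progenitors that switch on TCF-1, the product of Tcf7, and lose the capacity to form B cells. EILP are known as an early TCF-1-positive step on that path. Nfil3, Tox, Id2 and Gata3 are transcription factors known to act there.

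Every level below is in log2 CPM as deposited, CPM being a count scaled to the library's total, where a difference of 1 is a factor of 2. A level of a group is the mean ± SD over its libraries, and a difference is given ± SE of the limma model. In each batch, transcripts that were not detected lie at a common lowest level. A gene at that level in at least 2 libraries of a batch is described here as at the floor, and no fold is given against a group that lies wholly there. Such values made up 25.0% of all values and 0.135% of those of the 3711 genes with a mean level above 6. The labels place the libraries in 5 sequencing batches. EILP 1, EILP 2 and EILP 5 are each the only EILP library of batches 1, 2 and 4. Batch 4 holds 3 of the 5 ILCp. Leaving out such a library also removes the direct comparison with EILP in its batch, whatever RNA it held. EILP 3 and EILP 4 alone form batch 3, and the deposited values had been adjusted so that their average equals that of the other EILP libraries. They inform the errors but leave the differences unchanged, and their absolute levels are not independent. Total counts per library are unknown, and no counting interval was computed.

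Correlations between libraries were 0.376 to 0.904, no library was a copy of another, and EILP libraries differed among themselves in genes of other blood and bone cells. The summed level of 19 neutrophil granule genes was 43787 CPM in EILP 2 and 1679 to 7077 CPM in the other 6 EILP libraries. The sum of 10 eosinophil genes was 11123 CPM in EILP 6 and 51.9 to 679 CPM elsewhere in EILP. The sum of 17 stroma genes was highest in EILP 5, at 1700 CPM, and EILP 7, at 1075 CPM. All these sums come from the deposited values, in which the floor of a gene differs between batches. Sums of libraries in different batches can therefore be compared only with caution. Calls that rest on EILP 2, 5, 6 and 7 are given with and without them.

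The genes named first for this pattern were Nfil3, Mycn, Sdc1 and Il17re, and sequence upstream of the start of 3 of them is shown because it holds the regulatory stretch next to the start. Nfil3 (GRCm38, chr13:52967209-52981073, minus strand) encodes a basic leucine zipper repressor required for innate lymphoid progenitors. Mycn (chr12:12936093-12941914, minus strand) encodes a MYC family factor that drives growth and ribosome production. Sdc1 (chr12:8771323-8793715, plus strand) encodes syndecan-1, a cell-surface heparan sulphate proteoglycan known from plasma cells and epithelia. Il17re (chr6:113458484-113470758, plus strand) encodes a subunit of the receptor for IL-17C, and its RefSeq window lies inside the annotated gene. The stretches below, from RefSeq on GRCm38.p6, end at the more upstream of the RefSeq and GENCODE starts and read 5′ to 3′ on the gene's strand. They are chr13:52981074-52981289, chr12:12941915-12942086 and chr12:8771146-8771322.
Nfil3: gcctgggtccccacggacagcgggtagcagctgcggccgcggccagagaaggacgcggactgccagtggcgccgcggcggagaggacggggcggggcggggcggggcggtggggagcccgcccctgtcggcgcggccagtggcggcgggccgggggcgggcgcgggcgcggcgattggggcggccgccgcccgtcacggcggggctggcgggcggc
Mycn: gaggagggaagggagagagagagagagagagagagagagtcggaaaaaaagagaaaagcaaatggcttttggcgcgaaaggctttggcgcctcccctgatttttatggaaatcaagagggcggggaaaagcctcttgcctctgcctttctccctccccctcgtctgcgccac
Sdc1: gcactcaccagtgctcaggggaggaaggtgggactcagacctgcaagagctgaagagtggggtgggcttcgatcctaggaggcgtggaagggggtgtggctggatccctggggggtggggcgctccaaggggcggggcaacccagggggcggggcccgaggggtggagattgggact

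The Nfil3 stretch of 216 bases was 84.7% G and C and held 37 CpG pairs. The Mycn stretch (172 bases) was 54.1% G and C with 7 CpG pairs, and the Sdc1 stretch (177 bases) 68.4% with 6. None of 3 motifs, searched on both strands, occurred in them: the E-box CACGTG of MYC and MAX proteins, the site TTACNTAA of NFIL3 and PAR bZIP proteins, and the TCF site CTTTGAA. Upstream of the RefSeq start of Mycn, and inside the gene as GENCODE annotates it, a TCF site lay on the opposite strand, shown in capitals with 10 bases on each side, at chr12:12941834-12941860.
Mycn TCF site: tcccccgagcTTCAAAGcgcagccagt
Within 250 bases before and 50 after the RefSeq start, this motif occurred in 3.75% of the 14531 promoters of genes in the table.

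Nfil3 and Mycn were higher in EILP than at either neighbouring stage, and the groups did not overlap. Nfil3 levels in EILP 1 to 7 were 8.17, 8.22, 8.23, 8.16, 8.28, 8.01 and 8.28 log2 CPM. In ALP the lowest, median and highest Nfil3 levels were 4.44, 5.15 and 6.40 log2 CPM, and the 5 ILCp libraries held 6.25, 6.68, 5.00, 6.09 and 5.14. The EILP libraries lay within a narrow band, while the earlier and later stages were lower and more spread. The mean Nfil3 level was 8.19 ± 0.09 log2 CPM in EILP, 5.23 ± 0.64 in ALP and 5.83 ± 0.73 in ILCp, and EILP exceeded the average of the other stages by 2.66 ± 0.32 on the log2 scale (limma adjusted p = 0.000357).

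Mycn levels in EILP 1 to 7 were 7.36, 7.73, 7.54, 7.84, 7.87, 7.61 and 7.88 log2 CPM. ALP ranged from 3.88 to 5.80 with a median of 5.48, and ILCp held 6.71, 5.99, 5.60, 5.54 and 5.79. All EILP libraries were above all others, with ILCp 1 nearest. The difference from the average was 2.16 ± 0.31 on the log2 scale (limma adjusted p = 0.00126). EILP exceeded ILCp by less than ALP, at 1.76 on the log2 scale against 2.56.

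Sdc1 and Il17re showed the opposite pattern. The Sdc1 levels of EILP 1 to 7 were −2.73, −3.00, −0.66, 0.87, 1.19, 3.07 and 1.99 log2 CPM. In ALP Sdc1 ran from 5.24 to 9.18 with a median of 7.08, and ILCp held 8.87, 6.59, 6.09, 7.98 and 6.58. Every EILP library was below every ALP and ILCp library, although EILP varied widely, and EILP 1, 2, 5 and 7 held the lowest value of their batch. The difference from the average was −7.08 ± 1.05 on the log2 scale (limma adjusted p = 0.00152).

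Il17re levels in EILP 1 to 7 were −2.96, 2.66, −0.93, −0.28, 2.39, −2.57 and −2.57 log2 CPM, the last pair at the floor and EILP 1, 2 and 5 the lowest of their batch. ALP ranged from 4.32 to 8.21 (median 6.34) and ILCp held 7.05, 5.30, 4.59, 4.83 and 5.40 log2 CPM. The groups did not overlap, and the difference was −6.34 ± 1.03 on the log2 scale (limma adjusted p = 0.00341). Both differences rest in part on floor or near-floor values in EILP, so their sizes are less certain than their direction.

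**Figure D1:**
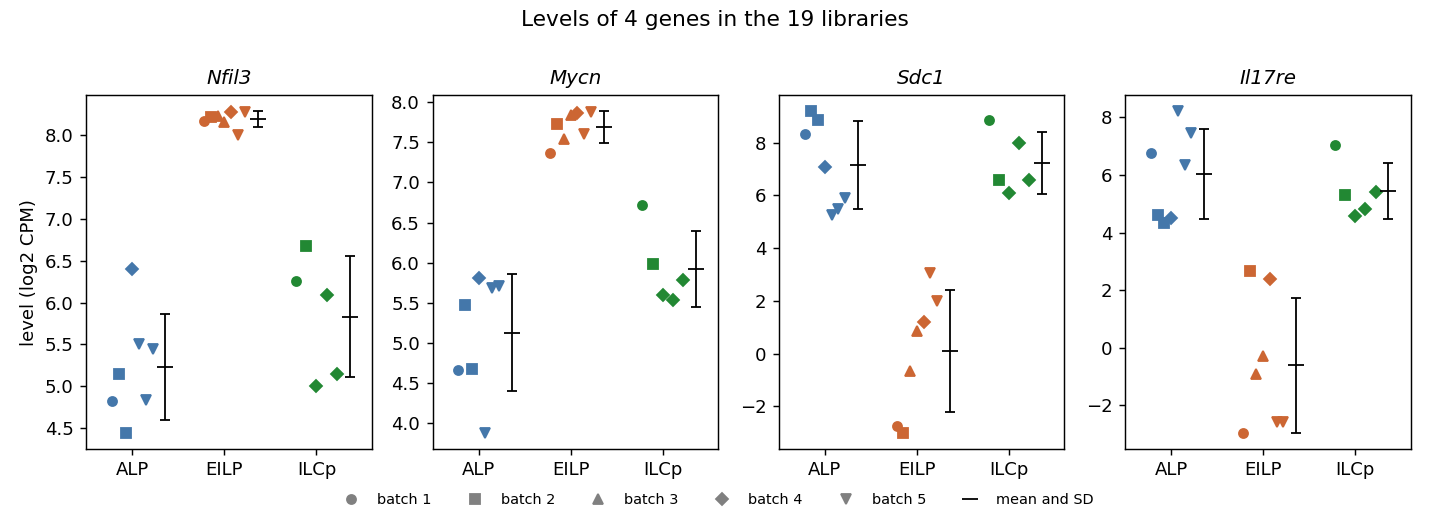
Levels (log2 CPM, vertical axis) of Nfil3, Mycn, Sdc1 and Il17re in each ALP, EILP and ILCp library, with the symbol giving the sequencing batch and the bar the group mean and SD. The 7 EILP libraries lie above all others for Nfil3 (8.01 to 8.28) and Mycn, and below all others for Sdc1 and Il17re.

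Each batch that holds all 3 stages (1, 2 and 4) gave the same direction for these 4 genes. They were chosen with earlier results of these same libraries known, so their behaviour by batch and by library is a description only. EILP minus ALP for Nfil3 was 3.35, 3.42 and 1.88 on the log2 scale in batches 1, 2 and 4, and 2.88 in batch 5, which holds no ILCp. EILP minus ILCp for Nfil3 was 1.92, 1.54 and 2.87. For Mycn, EILP minus ILCp was 0.65, 1.74 and 2.23 on the log2 scale. Sdc1 fell furthest in batches 1 and 2, where EILP minus ALP was −11.06 and −12.02, against −5.89 in batch 4 and −3.00 in batch 5. Il17re gave −9.72, −1.80 and −2.12 against ALP in batches 1, 2 and 4 and −9.91 in batch 5. The 4 calls held without any single library. In the 3 complete batches alone Nfil3 kept its size with an adjusted p of 0.0625 and Il17re was −4.54 with an adjusted p of 0.193 (limma).

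Most genes related to these 4 were not called. Of 13 circadian and PAR bZIP genes, Nfil3 alone was called, above, and the median difference was −0.59 on the log2 scale, against 0.02 over all genes. Dbp, Tef and Hlf, activators that bind the same sites as NFIL3, had EILP levels of 2.99 ± 0.44, 3.72 ± 1.47 and 2.52 ± 2.93 log2 CPM and differences of −0.95, −1.62 and −2.02 that did not pass (limma adjusted p = 0.155, 0.244 and 0.494). Of 12 MYC network genes, Mycn alone was called, above. Myc, the close relative of Mycn, was 7.72 ± 0.13 log2 CPM in EILP, between 8.45 ± 0.35 in ALP and 7.28 ± 0.35 in ILCp, and the difference from their average, −0.14, did not pass (limma adjusted p = 0.72). Of 8 IL-17 receptor genes, Il17re and Il17ra, the subunit shared by IL-17 receptors, were called below. Il17ra was 6.57 ± 0.41 log2 CPM in EILP against 8.44 ± 0.17 in ALP and 7.07 ± 0.40 in ILCp, and its call was lost without EILP 5 (limma adjusted p = 0.055). Il17rb, which binds IL-25, was 5.43 ± 1.24 log2 CPM in EILP, between ALP (1.59 ± 2.04) and ILCp (6.87 ± 0.70), and was not called. Of 14 syndecan, glypican and heparan sulphate enzyme genes, Sdc1 and Hs6st1, a heparan sulphate 6-O-sulphotransferase, were called below. Hs6st1 fell from 4.92 ± 0.48 log2 CPM in ALP and 5.26 ± 0.38 in ILCp to 3.45 ± 0.58 in EILP, a call lost without EILP 1 or EILP 2 (limma adjusted p up to 0.0573).

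The question put to all genes was which of them EILP expressed outside the range of its neighbours. With batch in the limma model, 449 of 18607 genes (2.41%) differed between EILP and the average of ALP and ILCp at an adjusted p below 0.05. Of these, 180 (0.967% of all genes) had an EILP mean above both group means, 228 (1.23%) below both, and 41 between them. By group mean alone, with no test, 6370 genes (34.2%) lay above both and 5647 (30.3%) below both. A position outside both neighbours was therefore common, and the call was not. These shares over all genes are the background for each count of list members in the text.

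Passing the average does not mean that both steps changed. Of the 180 genes above, 34 (0.183% of all genes) passed against ALP and against ILCp separately, 81 against ALP only, 59 against ILCp only and 6 against neither. Of the 228 below, 51 (0.274% of all genes) passed against both, 117 against ALP only, 57 against ILCp only and 3 against neither. Zbtb16, which encodes PLZF and is the reporter gene of ILCp 4 and 5, passed against ALP only. It was 6.97 ± 1.01 log2 CPM in EILP and 6.48 ± 0.76 in ILCp, with ALP mostly near the floor at −2.40 ± 2.18. The same holds for Itga2b, the platelet integrin αIIb, at 5.99 ± 0.59 log2 CPM in EILP and 0.24 to 6.42 in ILCp, with 5 of 7 ALP libraries at the floor. In 16 genes called above, another stage lay wholly at the floor, and in 37 called below at least 4 EILP libraries did.

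**Figure D2:**
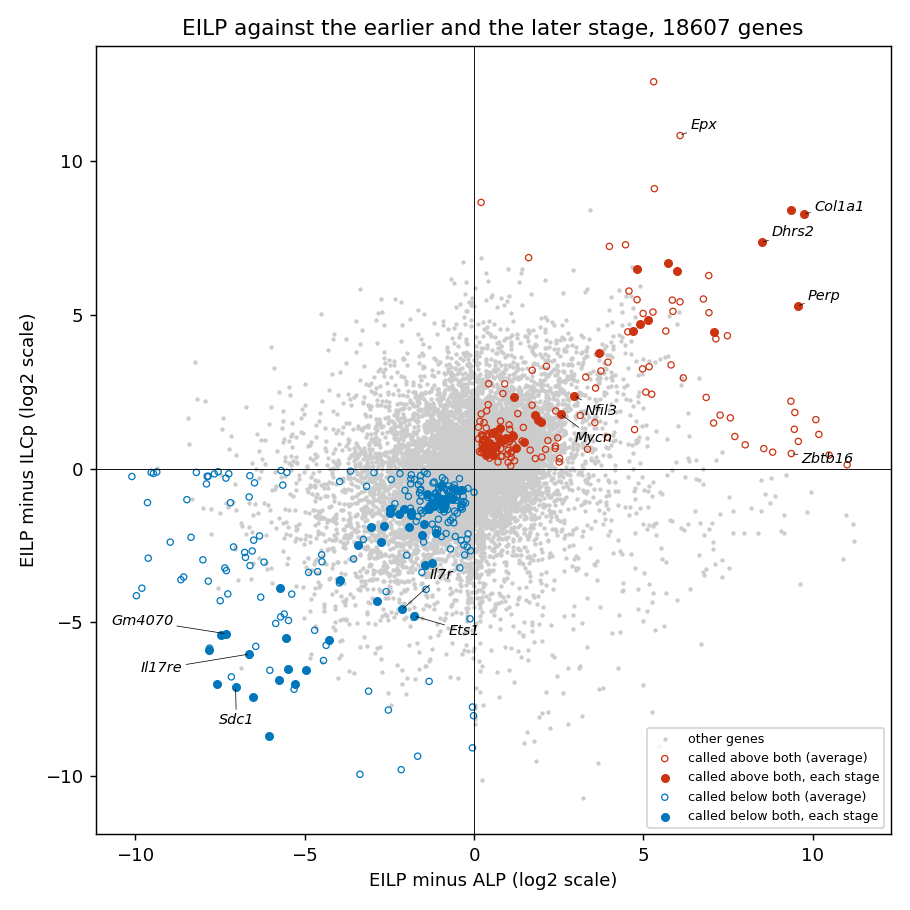
EILP minus ALP (horizontal) and EILP minus ILCp (vertical), both on the log2 scale, for 18607 genes, with calls above both stages in red and below both in blue. Filled points are the 34 and 51 genes that passed against each stage. Open points near an axis, such as Zbtb16, differ from 1 neighbour only.

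The genes that passed against each stage were chosen on these same libraries, so their separation by library and batch is a description only. All 7 EILP libraries were above all ALP and ILCp libraries in 26 of the 34 genes and below them in 35 of the 51, where 0.392% and 0.339% of all genes were so placed. In 30 of the 34 and 50 of the 51, EILP lay outside both stages in each of batches 1, 2 and 4, and the remaining 4 and 1 did so in 2 of these batches. Over the full sets of 180 and 228 genes, 118 and 131 lay outside both stages in all 3 batches, 51 and 63 in 2 of them, and 11 and 34 in 1 or 0. In batch 5 all 34 and all 51 were on the same side of ALP, as were 176 of the 180 and 218 of the 228. Leaving out each library in turn kept 8 of the 34 and 17 of the 51 called against both stages every time. The median sizes of the differences were 1.73 above and 1.96 below on the log2 scale.

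The threshold runs through close neighbours. Zfp266, with a difference of 0.60 on the log2 scale, was the last gene called above (limma adjusted p = 0.0498), and Ybx3, at 0.66, the first not called (0.0502). Below, Foxo1 at −5.06 was the last called (limma adjusted p = 0.04996) and Apbb2 at −6.68 the first not called (0.0515).

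Scaling affects the balance of directions. Centring each library on its median raised all genes in EILP by 0.15 on the log2 scale relative to the other stages and moved the share of called genes that were above from 44.1% to 70.9%, against 49.9% with quantile normalization. Of the 91 called genes examined singly, none changed sign under any setting tried.

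Among the signalling genes, the adaptor Grb2, which links Kit and other receptors to Ras, had the smallest p of all genes called above. Its levels in EILP 1 to 7 were 8.61, 8.56, 8.76, 8.60, 8.57, 8.69 and 8.97 log2 CPM. In ALP they ran from 6.97 to 7.45 and in ILCp from 7.67 to 7.88. The 3 groups did not overlap, with ILCp nearer to EILP than ALP. The difference from the average was 1.18 ± 0.10 on the log2 scale (limma adjusted p = 8.25e-05).

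Nfkb1, which encodes the NF-κB precursor p105 and subunit p50, was 9.07 ± 0.16 log2 CPM in EILP (8.83 to 9.24), against 7.19 ± 0.29 in ALP and 7.50 ± 0.45 in ILCp. The groups did not overlap, and the difference from the average was 1.73 ± 0.18 on the log2 scale (limma adjusted p = 0.000128). Nfkbia and Nfkbiz, which encode the inhibitor IκBα and the nuclear regulator IκBζ, moved the other way. Nfkbia levels in EILP ran from 6.49 to 6.94 log2 CPM, below ALP (6.98 to 7.52) and ILCp (7.06 to 7.82), and the difference of −0.62 ± 0.14 passed against both stages (limma adjusted p = 0.0239 for the average). That call was lost without EILP 1, 2, 5 or 6 (adjusted p up to 0.0798) and with median centring. Nfkbiz was −4.09 ± 2.01 log2 CPM in EILP, with EILP 6 and EILP 7 at the floor, and 1.66 ± 2.43 in ALP and 2.78 ± 0.71 in ILCp, a call lost without EILP 5 (limma adjusted p = 0.0744). The other 11 of 14 NF-κB subunits, inhibitors and kinase genes, a family put together after the values were seen, were not called.

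A receptor and a signal carrier of the TGF-β and BMP pathway were lower in EILP. Tgfbr2, the ligand-binding TGF-β receptor, had levels of 4.98, 4.97, 5.35, 4.93, 5.46, 4.87 and 5.40 log2 CPM in EILP 1 to 7. ALP ran from 6.02 to 6.80 and ILCp from 7.60 to 8.74 log2 CPM. EILP was the lowest of the 3 stages and ILCp the highest, with no overlap. The difference from the average was −2.15 ± 0.20 on the log2 scale (limma adjusted p = 9.52e-05). Smad1, a signal carrier of BMP receptors, was 4.77 ± 0.28 log2 CPM in EILP, 6.14 ± 0.44 in ALP and 6.04 ± 0.27 in ILCp (difference −1.32 ± 0.23, limma adjusted p = 0.00577). These 2 were the calls among 20 receptor, ligand and Smad genes, a family also chosen after the values were seen, of which 13 lay below both stages by group mean. Over all genes, 1.23% were called below and 30.3% lay below both by group mean.

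Dusp6, a phosphatase that is induced by ERK signalling and switches ERK off, was called below. Its EILP 1 level of −0.02 log2 CPM stood apart from 2.72 to 4.39 in EILP 2 to 7, and ALP ran from 5.61 to 8.68 and ILCp from 5.71 to 7.67. The groups did not overlap, and the difference was −3.80 ± 0.64 on the log2 scale (limma adjusted p = 0.00427). Dusp5, of the same family, was 4.23 ± 0.74 log2 CPM in EILP, 5.47 ± 0.39 in ALP and 6.04 ± 0.49 in ILCp (limma adjusted p = 0.0293), and its call was lost without ALP 5, ALP 7, EILP 1, EILP 5 or ILCp 1 (adjusted p up to 0.122). The other 17 of 19 Dusp genes were not called. Dusp6 was the only call among 23 immediate early and stress genes, whose median difference was −0.01 on the log2 scale.

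**Figure D3:**
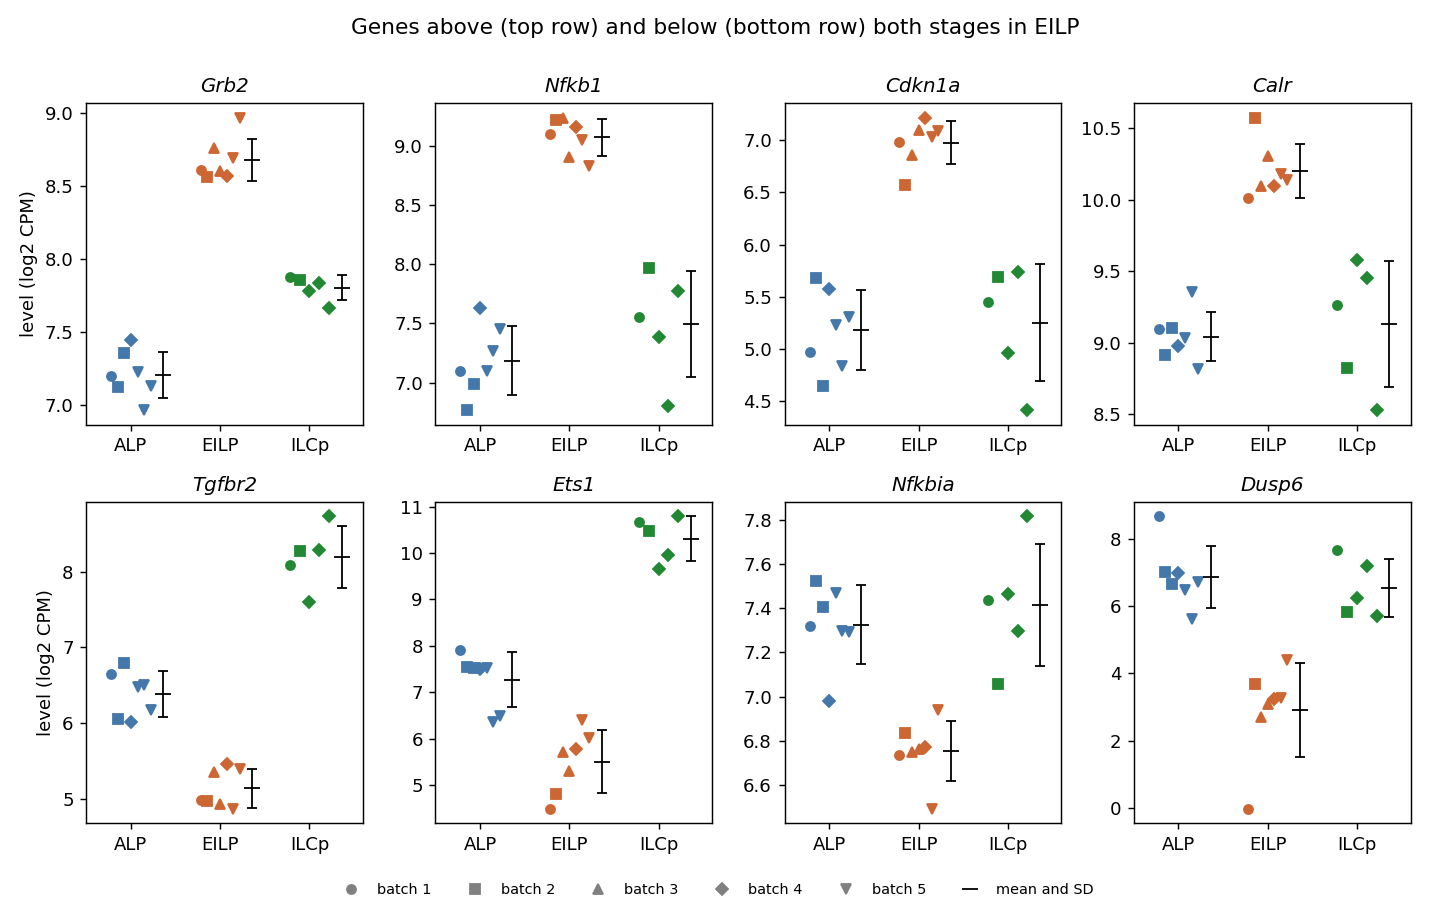
Levels (log2 CPM, vertical axis, not starting at 0) of 8 genes by stage and library, with symbols for batches and bars for the group mean and SD. Grb2, Nfkb1, Cdkn1a and Calr lie above ALP and ILCp in EILP. Tgfbr2, Nfkbia and Dusp6 lie below both without overlap, and for Ets1 EILP 6 reaches the lowest ALP library.

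Among transcription factors of innate lymphoid development, 4 of 17 were called above and 1 below, against 0.967% and 1.23% of all genes. The 4 were Nfil3, Zbtb16, Runx3 and Tcf7, and the median difference of the list was 1.99 on the log2 scale. Nfil3 is a marker chosen for this pattern, and Tcf7 and Zbtb16 are reporter genes of the sorts. The share of the list is therefore a description and no result about its members. Runx3, a Runt family factor, was 7.44 ± 0.36 log2 CPM in EILP, 5.79 ± 0.38 in ALP and 6.84 ± 0.14 in ILCp, and only the step from ALP passed (limma adjusted p = 0.000212 against ALP and 0.258 against ILCp). Its call against the average was lost without EILP 5 (limma adjusted p = 0.0573). Tcf7 is the gene of the sorting reporter and no finding. Its mRNA was 10.51 ± 1.85 log2 CPM in EILP and 9.24 ± 0.28 in ILCp, and was highest in EILP 6 (12.88) and EILP 7 (13.07), the libraries of batch 5.

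Ets1, a factor needed by T cells and by innate lymphoid lineages, was the member called below. EILP 1 to 7 held 4.49, 4.81, 5.71, 5.30, 5.78, 6.41 and 6.03 log2 CPM. ALP ran from 6.36 to 7.92 and ILCp from 9.65 to 10.79. ALP and EILP touched, since EILP 6 was above ALP 6, while ILCp stood far above both. The difference from the average was −3.28 ± 0.35 on the log2 scale, made of −1.76 against ALP and −4.81 against ILCp (limma adjusted p = 0.000131).

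Of 16 lymphoid progenitor genes, Il7r, Notch1 and Tcf4 were called below and none above, with a median difference of −0.83 on the log2 scale. Il7r, the IL-7 receptor, was used in the sort and is no finding, at 5.34 ± 0.89 log2 CPM in EILP. Notch1 was 5.41 ± 0.59 log2 CPM in EILP and 5.58 ± 0.42 in ILCp, below 7.60 ± 0.41 in ALP, and Tcf4, the E protein E2-2, was 6.29 ± 0.38, 6.64 ± 0.22 and 8.05 ± 0.26 in the same order. For both, only the step from ALP passed (limma adjusted p = 0.000414 and 4.85e-05). The Notch1 call against the average was lost in 15 of 19 fits that left out 1 library (adjusted p up to 0.18). Of 18 Foxo and Klf factors, a family chosen after the values were seen, 2 were called below, none above and 16 not, and 8 lay below and 4 above both stages by group mean. The 2 called were Foxo1 and Klf3, factors of lymphocyte quiescence and homing, at 0.66 ± 2.95 and 1.61 ± 1.62 log2 CPM in EILP. Klf3 was 6.49 ± 1.27 log2 CPM in ALP and 4.99 ± 0.53 in ILCp (difference −4.14 ± 0.74, limma adjusted p = 0.00656), and did not pass against ILCp alone (limma adjusted p = 0.0651). The Foxo1 call was lost in 17 of 19 such fits (adjusted p up to 0.203).

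Most of the receptor and homing genes examined were not called. The shares over all genes were 0.967% called above and 1.23% below. Of 30 cytokine receptor genes, Il2rb was called above and Il7r and Tgfbr2 below, and the median difference was 0.14 on the log2 scale. Il2rb, which encodes CD122 and was used in the sort, was 7.14 ± 1.57 log2 CPM in EILP and 6.61 ± 0.61 in ILCp, from which it did not pass (limma adjusted p = 0.905). Its call was lost in 17 of 19 fits that left out 1 library (limma adjusted p up to 0.114). Of 24 chemokine and adhesion genes, Itga4 was called above and the chemokine receptors Ccr7 and Ccr9 below. Itga4, a chain of the α4β7 integrin used in the ILCp gate, was 9.38 ± 0.10 log2 CPM in EILP. Ccr7 was 3.55 ± 0.97 log2 CPM in EILP against 5.04 ± 0.71 in ALP and 5.94 ± 0.36 in ILCp, and Ccr9 was −2.59 ± 2.70 against 5.22 ± 2.13 and 3.26 ± 3.94. Their calls were lost in 10 and 17 of the 19 fits without 1 library. Of 13 ILC2 genes, Icos, a costimulatory receptor, was called below, at 0.70 ± 2.38 log2 CPM in EILP and 7.63 ± 1.02 in ILCp, with ALP at 2.03 ± 1.11, and that call was lost in 14 fits. No gene was called among 16 of the NK and ILC1 lineage, 10 of ILC3, 16 of T cells and 14 of B cells.

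A minority of the interferon-inducible genes examined were called below both stages. Tgtp2, a T-cell-specific GTPase induced by interferon, was 5.05 ± 0.21 log2 CPM in EILP (4.68 to 5.30), against 7.27 ± 0.25 in ALP (6.82 to 7.61) and 6.54 ± 0.54 in ILCp (6.11 to 7.47). The groups did not overlap, and the difference was −1.85 ± 0.22 on the log2 scale (limma adjusted p = 0.000319). Tgtp1, its near-identical neighbour on chromosome 11, gave −2.57 ± 0.47 (limma adjusted p = 0.00692), and reads of this pair may be shared, so each value is uncertain. Iigp1, an immunity-related GTPase, was −1.42 ± 2.46 log2 CPM in EILP, 6.05 ± 0.76 in ALP and 4.00 ± 1.97 in ILCp (limma adjusted p = 0.00427). These 3 were the calls among 15 GTPases, a family chosen after the values were seen, of which 10 lay below both stages by group mean and none above. Over all genes, 1.23% were called below and 30.3% lay below both by group mean.

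In a separate list of 16 interferon-stimulated genes, 3 were called below, none above, and 9 lay below both stages by group mean, with a median difference of −1.38 on the log2 scale. Irf7, the main inducer of interferon-α, was 4.53 ± 0.31 log2 CPM in EILP, 6.12 ± 0.21 in ALP and 5.23 ± 0.12 in ILCp (limma adjusted p = 0.00427). Ifi44 and Ifit1, both interferon-stimulated, were 0.19 ± 1.96 and −1.74 ± 2.21 log2 CPM in EILP against 7.29 ± 1.47 and 5.54 ± 1.35 in ALP. None of the 3 passed against ILCp alone (limma adjusted p = 0.142, 0.284 and 0.171 for Irf7, Ifi44 and Ifit1), the other 13 were not called, and the Ifit1 call was lost without EILP 1, 2, 5 or 6 or ILCp 1 (limma adjusted p up to 0.0794). Ly6a, which encodes the stem cell antigen Sca-1 and is induced by interferon, was 3.52 ± 0.38 log2 CPM in EILP, 6.95 ± 0.32 in ALP and 6.01 ± 1.37 in ILCp, and passed against both (limma adjusted p = 0.00159 for the average). Gm4070, a protein-coding gene without an assigned name on chromosome 7, was at the floor in EILP 6 and 7, the lowest of its batch in EILP 1, 2 and 5, and −4.69 to −3.33 log2 CPM over all 7. It was 3.08 ± 0.45 log2 CPM in ALP and 1.14 ± 0.77 in ILCp, with no overlap (limma adjusted p = 9.52e-05).

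The genes with the smallest p below both stages had various roles and form no list that was tested. Tspan13, a tetraspanin, was 6.63 ± 0.30 log2 CPM in EILP, 9.11 ± 0.30 in ALP and 7.95 ± 0.24 in ILCp, and EILP libraries (6.25 to 7.19) did not overlap the others (limma adjusted p = 9.52e-05). Tpm4 (a tropomyosin), Coro7 (a coronin), Lcp1 (L-plastin, an actin bundler) and, chosen after its values were seen, Evl (an Ena/VASP protein) were called against both stages. Tpm4 was 6.82 ± 0.26 log2 CPM in EILP, 8.67 ± 0.22 in ALP and 8.23 ± 0.35 in ILCp. Coro7 was 6.77 ± 0.23, 8.83 ± 0.28 and 8.09 ± 0.39 log2 CPM in the same order. Lcp1 changed least, by −0.55 ± 0.07 on the log2 scale, yet its EILP libraries (10.17 to 10.44) were all below ALP (10.54 to 10.87) and ILCp (10.89 to 11.09). Its call was lost without a variance trend in limma. Emb, or embigin, a membrane partner of lactate transporters, was 8.47 ± 0.25 log2 CPM in EILP and 9.79 ± 0.18 and 9.78 ± 0.26 in ALP and ILCp (limma adjusted p = 0.000128). Aldh2, the mitochondrial aldehyde dehydrogenase, was 7.58 ± 0.20 log2 CPM in EILP, 8.69 ± 0.09 in ALP and 8.46 ± 0.20 in ILCp (limma adjusted p = 0.000206). Further genes called below both stages were Emp1, Samsn1, Stk17b, Arhgef3, Jakmip1, Cmah and Rnase4, with differences from −1.61 (Stk17b) to −7.29 (Rnase4) on the log2 scale.

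Most of the cell-cycle genes examined were not called. Cdkn1a, the Cdk inhibitor p21, was 6.98 ± 0.21 log2 CPM in EILP (6.57 to 7.21), 5.18 ± 0.38 in ALP (4.65 to 5.68) and 5.25 ± 0.56 in ILCp (4.41 to 5.74). The groups did not overlap, and the difference was 1.76 ± 0.25 on the log2 scale (limma adjusted p = 0.00104). Cdkn1c, which encodes p57, was 4.21 ± 0.91 log2 CPM in EILP, with a call lost in 16 of 19 fits without 1 library (limma adjusted p up to 0.171). Of 26 cell-cycle genes, Cdkn1a and Ccnd2, cyclin D2, were called above and none below. In this list 7 lay below both stages by group mean, and the median difference was −0.17 on the log2 scale. The shares over all genes were 0.967% called above and 30.3% below both by group mean. Ccnd2 was 9.01 ± 0.16 log2 CPM in EILP, 8.89 ± 0.19 in ALP and 7.67 ± 0.38 in ILCp, with no difference passing against ALP (limma adjusted p = 0.718), and its call was lost without EILP 1 or EILP 2 (limma adjusted p up to 0.0593). Perp, a membrane protein and known p53 target like Cdkn1a, was 5.67 ± 0.96 log2 CPM in EILP and 0.37 ± 2.21 in ILCp, with 5 of 7 ALP libraries at the floor (limma adjusted p = 0.000429).

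Single genes with roles in protein turnover, folding, growth and mitochondria were also called above. Skp1a, a subunit of SCF ubiquitin ligases, was 10.53 ± 0.10 log2 CPM in EILP (10.40 to 10.65), 9.28 ± 0.23 in ALP and 9.87 ± 0.16 in ILCp, without overlap (limma adjusted p = 0.000162). Calr, the endoplasmic reticulum chaperone calreticulin, was 10.20 ± 0.19 log2 CPM in EILP, 9.04 ± 0.17 in ALP and 9.13 ± 0.44 in ILCp (limma adjusted p = 0.00108). Mif, which encodes an inflammatory cytokine also abundant in growing cells, was 9.02 ± 0.15, 8.46 ± 0.21 and 7.88 ± 0.16 log2 CPM in the same order (limma adjusted p = 0.000613). Vdac1, the channel of the outer mitochondrial membrane, and Atp5g1, a subunit of ATP synthase, exceeded the average by 0.87 ± 0.13 and 0.63 ± 0.11 on the log2 scale and kept their calls without each library (limma adjusted p = 0.00202 and 0.00577).

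Others of this kind lost their calls in fits without single libraries. Slc25a5, the adenine nucleotide carrier, Eif4a1, a translation helicase, Hspd1, a mitochondrial chaperonin, Nme1, a nucleoside diphosphate kinase, Farsa, a phenylalanyl-tRNA synthetase subunit, Mrps24, a mitochondrial ribosomal protein, and Cox5a, of cytochrome oxidase, passed against both stages. Their differences from the average were 0.40 to 0.86 on the log2 scale. The calls of all but Mrps24 were lost without EILP 5, Hspd1 and Nme1 also without EILP 2, Farsa without EILP 1, Mrps24 without EILP 2, and Cox5a without EILP 2, 6 or 7 (limma adjusted p up to 0.0858). Of 16 ribosome biogenesis genes, Wdr12 was called above, and 13 lay above both stages by group mean, with a median difference of 0.37. Of 94 respiratory chain and ATP synthase genes, 2 were called above and none below, and 64 lay above both by group mean, with a median of 0.29. Of 38 proteasome subunits, 3 were called above and 30 lay above both (median 0.23), and of 65 translation factors 6 and 37 (median 0.16). Over all genes, 0.967% were called above, 34.2% lay above both by group mean and the median was 0.02. No family is called particular from these counts. Since median centring adds 0.15 to every gene, these medians move with the scaling. The last 3 families were put together after the values were seen.

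The E-box CACGTG of MYC proteins occurred in the RefSeq promoter of 5 of the 25 genes above each stage that have one, or 20.0%, against 11% of 11454 genes. It occurred in 2 of 38 genes below each stage, or 5.26%. In the full sets called against the average the shares lay nearer to that of all genes. They were 19 of 134 genes above (14.2%) and 14 of 156 below (8.97%). The sites are shown because these genes were called above together with Mycn, with the motif in capitals and 10 bases on each side. They lie at chr11:96075660-96075685, chr8:84847140-84847165, chr11:69672597-69672622, chr1:55088308-55088333 and, for Nme1, chr11:93968039-93968064 and chr11:93968275-93968300.
Atp5g1: ggactccgaaCACGTGggtgggggag
Calr: gaggttcagtCACGTGaccgtgcctg
Eif4a1: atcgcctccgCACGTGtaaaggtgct
Hspd1: ccggctgggaCACGTGaaaaggccgc
Nme1, first site: cttgatacgcCACGTGggctcgcctt
Nme1, second site: tgcggggaacCACGTGaggccgggga
All 5 genes lie on the minus strand. The motifs begin at −224 (Calr) to −18 (Nme1) relative to a RefSeq start, and those of Nme1 lie inside the gene as GENCODE annotates it. The NFIL3 and PAR bZIP site TTACNTAA occurred in no promoter of the genes above and in 1 of 38 genes below (Lcp1), against 1.87% of all genes. The TCF site occurred in 1 of 25 genes above (Mycn) and 4 of 38 below (Emp1, Frmd4b, Lcp1 and Rnase4), against 4.54% of all genes. A match is a description of the sequence only.

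Several further genes called above lay at the floor in most or all libraries of at least 1 neighbouring stage. Dhrs2, a short-chain dehydrogenase, had levels of 3.86, 3.68, 4.38, 2.45, 2.65, 4.20 and 2.67 log2 CPM in EILP 1 to 7. All 7 ALP libraries and ILCp 1, 2 and 4 were at the floor, and ILCp 3 and 5 were at −3.15 and −1.09 log2 CPM (limma adjusted p = 0.000128). Flt1, a VEGF receptor, was −0.03 to 3.28 log2 CPM in EILP, with 5 ALP and all 5 ILCp libraries at the floor (limma adjusted p = 0.00183). It was the only call among 12 endothelial genes, whose median difference was −0.58 on the log2 scale, and Pecam1, an endothelial and blood cell adhesion gene, was 7.37 ± 0.20, 7.43 ± 0.19 and 7.27 ± 0.12 log2 CPM in ALP, EILP and ILCp. Cpb1, a pancreatic carboxypeptidase, was 0.09 to 4.03 log2 CPM in 6 EILP libraries and at the floor in EILP 6 and in all 12 others. Nccrp1 was 0.49 to 2.67 log2 CPM in EILP, with ALP wholly at the floor. ILCp 2 held 0.55 log2 CPM of Nccrp1, level with EILP 2 of the same batch, ILCp 3 held −2.99, and the other 3 ILCp libraries were at the floor, so EILP and ILCp overlapped. Dlk1, a Notch-like ligand, was 0.24 ± 1.35 log2 CPM in EILP, a call lost without EILP 5 (limma adjusted p = 0.0596).

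Some granule genes of neutrophils were called above in EILP. Their summed level was highest in EILP 2, and their mean log2 level in EILP 6, at 5.83 log2 CPM against 3.99 in EILP 2, where 6 of the 19 were at the floor. Of 19 genes in this list, Mpo, Prtn3 and Cebpe were called above and Mmp8, a neutrophil collagenase, below. The median difference was 2.22 on the log2 scale against 0.02 over all genes. In bulk libraries, more cells of a type and more RNA per cell cannot be told apart. Mpo, or myeloperoxidase, had levels of 11.08, 13.14, 11.42, 12.20, 10.30, 12.27 and 12.27 log2 CPM in EILP 1 to 7. ALP ran from 8.57 to 10.70 and ILCp from 6.16 to 10.30 log2 CPM, so EILP was high and EILP 5 reached into the range of the other stages. The Mmp8 call was lost in 16 of 19 fits that left out 1 library, the Mpo call in 14 and the Prtn3 call, for proteinase 3, in 10 (limma adjusted p up to 0.155, 0.166 and 0.138). Without EILP 2 and EILP 6 the differences were 1.99 for Mpo and 1.71 for Prtn3 on the log2 scale (limma adjusted p = 0.317 and 0.272).

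Elane, neutrophil elastase, showed the spread most plainly. Its EILP levels were 6.72, 14.73, 8.52, 9.66, 6.42, 8.69 and 8.87 log2 CPM. As deposited, EILP 2 stood apart, and both other stages reached from the floor (ALP 3, ILCp 2) up to 10.51 in ALP and 6.50 in ILCp. It was not called. Ctsg, cathepsin G, was also highest there, with 11.87 log2 CPM in EILP 2 and 5.87 to 8.62 in the others. Cebpe, a factor of late granulocyte maturation, was detected at a low and even level, 3.89, 3.22, 2.59, 3.11, 1.46, 2.91 and 2.78 log2 CPM in EILP 1 to 7, above every ALP (highest 0.62) and ILCp (highest −1.93) library. Cebpe passed against both stages (limma adjusted p = 0.00427), kept its call without each library, and missed the threshold without EILP 2 and EILP 6 together (5.47, adjusted p = 0.0549).

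Of the genes of secondary granules, which form later, 4 chosen after their values were seen are described, and none of them was called. Ltf, lactoferrin, was 5.68 log2 CPM in EILP 6 and 1.74 or less in the other EILP libraries, of which EILP 1, 2 and 7 were at the floor. Camp, Ngp and Lcn2 were likewise highest in EILP 6, at 6.42, 8.21 and 5.85 log2 CPM. All 4 were also high in ALP 2, at 8.21, 6.92, 8.43 and 8.19 log2 CPM, and in ALP 6. EILP 2, highest for Elane and Mpo, had Ltf, Camp and Lcn2 at the floor. Of the 19 genes, 8 were highest in EILP 2 and 9 in EILP 6.

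Some eosinophil genes were called above in EILP, with the highest sum in EILP 6. Of 10 genes, 4 were called above, none below, 6 were not called, and the median difference was 4.31 on the log2 scale. Over all genes, 0.967% were called above and the median was 0.02. Prg2, the major basic protein of eosinophil granules, had levels of 6.16, 8.58, 6.62, 7.23, 6.89, 13.12 and −0.13 log2 CPM in EILP 1 to 7. ALP ran from −4.78 to 5.99 and ILCp from −7.52 to −3.64. As deposited, EILP 6 was far above the rest, and EILP 7 was at the floor together with ALP 6 and ALP 7. That floor, −0.13 log2 CPM in batch 5, lay well above the lowest ALP level of −4.78, so the floor differs between batches. EILP 6 and libraries of other batches can therefore be compared only with caution. Epx, eosinophil peroxidase, gave the same picture, with 10.88 log2 CPM in EILP 6, the floor in EILP 7 and 4.40 to 5.81 in the other 5. EILP 6 and EILP 7 belong to the same sequencing batch.

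The eosinophil calls did not hold in every fit that left out 1 library. Epx (limma adjusted p = 0.0101) lost its call without EILP 5 (0.0744), and Prg3 and Ear2 each without any of 4 EILP libraries (adjusted p up to 0.0983 and 0.0843). Prg2 (0.0219) lost it without any of EILP 1 to 6 or ILCp 1 (adjusted p up to 0.0986). Without EILP 2 and EILP 6 none of the 4 calls held (limma adjusted p = 0.22 for Prg2 and 0.0871 for Epx). All 4 passed against ILCp and none against ALP (limma adjusted p = 0.0116 and 0.185 for Prg2). Siglecf, an eosinophil surface receptor, was 2.94 to 7.83 log2 CPM in EILP and not called. Of the 10 eosinophil genes, EILP 7 had 8 at the floor and the other EILP libraries 1 to 4, and the summed level was 1.97 to 77.9 CPM in ALP, a range that holds the 51.9 CPM of EILP 7, and 0.656 to 7.13 CPM in ILCp.

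Basophil and mast cell genes gave 1 call among 7. Cpa3, mast cell carboxypeptidase, was 9.84, 8.26, 10.04, 10.04, 8.39, 11.46 and 12.25 log2 CPM in EILP 1 to 7. It was 6.54 to 9.10 log2 CPM in ILCp and −3.10 to 4.62 in ALP, so only the step from ALP passed (limma adjusted p = 0.000253 against ALP and 0.504 against ILCp). The average was lost without EILP 1, 6 or 7 (adjusted p up to 0.0522). Mcpt8 and Hdc, a basophil protease and the histamine-forming enzyme, were highest in EILP 2, at 8.37 and 9.44 log2 CPM, and not called. Gata2, a factor of mast cells and stem cells, was −1.02 ± 1.66 log2 CPM in EILP against 2.76 ± 2.05 in ALP and 3.90 ± 2.24 in ILCp, and was not called.

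Some transcripts of bone and stroma were called above in EILP, unevenly across its libraries. Of 17 genes, Col1a1, Col1a2, Sparc and Ibsp were called above, none below, and the median difference was 3.92 on the log2 scale. Over all genes, 0.967% were called above and the median was 0.02. Col1a1, a chain of type I collagen, had levels of −0.78, 2.89, 4.46, 6.00, 9.43, 6.48 and 8.14 log2 CPM in EILP 1 to 7. All 7 ALP and 4 of 5 ILCp libraries were at the floor, and ILCp 2 was at −1.11. EILP 1 was at the floor too, level with ALP 1 and ILCp 1, and EILP 5 and EILP 7 were highest. Col1a2, the partner chain, ran from −0.37 (EILP 1) to 8.78 log2 CPM (EILP 5) in the same order of libraries at its ends. Both passed against each stage (limma adjusted p = 0.00458 and 0.00558 for the average), and both lost the call without EILP 5 (0.0522 and 0.0645). Without EILP 5 and EILP 7 the adjusted p was 0.102 for Col1a1 and 0.128 for Col1a2, and without EILP 2 and EILP 6 it was 0.0353 and 0.056 (limma).

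Some other stroma genes were found in fewer EILP libraries. Dcn, the matrix proteoglycan decorin, was 4.30 log2 CPM in EILP 5 and 6.59 in EILP 7, was at the floor in EILP 1, 2 and 6, and was at the floor in all 12 ALP and ILCp libraries. Bglap, osteocalcin, was 4.70 log2 CPM in EILP 5 and 5.26 in EILP 7, and at the floor in EILP 1 and 2. The Sparc and Ibsp calls, for osteonectin and bone sialoprotein, were lost in 16 of 19 fits each (limma adjusted p up to 0.252 and 0.207). Spp1, osteopontin, was 4.85 to 7.89 log2 CPM in 6 EILP libraries and at the floor in EILP 2. Pdgfrb, a receptor of mural and stromal cells, did not follow the collagens, at 6.38 ± 0.28 log2 CPM in EILP, 6.73 ± 0.49 in ALP and 4.68 ± 0.59 in ILCp. The summed stroma level was 116 to 1700 CPM in EILP, 61.4 to 156 CPM in ALP and 24.6 to 93.2 CPM in ILCp, and 2 to 14 of the 17 genes were at the floor in an EILP library, against 12 to 16 in ALP and 11 to 15 in ILCp. EILP 2, with the lowest EILP sum, lay within the range of ALP, and EILP 1 and EILP 2 had 14 and 13 genes at the floor. The summed level includes Pdgfrb, which was high in ALP, while Col1a1 was 2.89 log2 CPM in EILP 2 and at the floor in ALP.

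**Figure D4:**
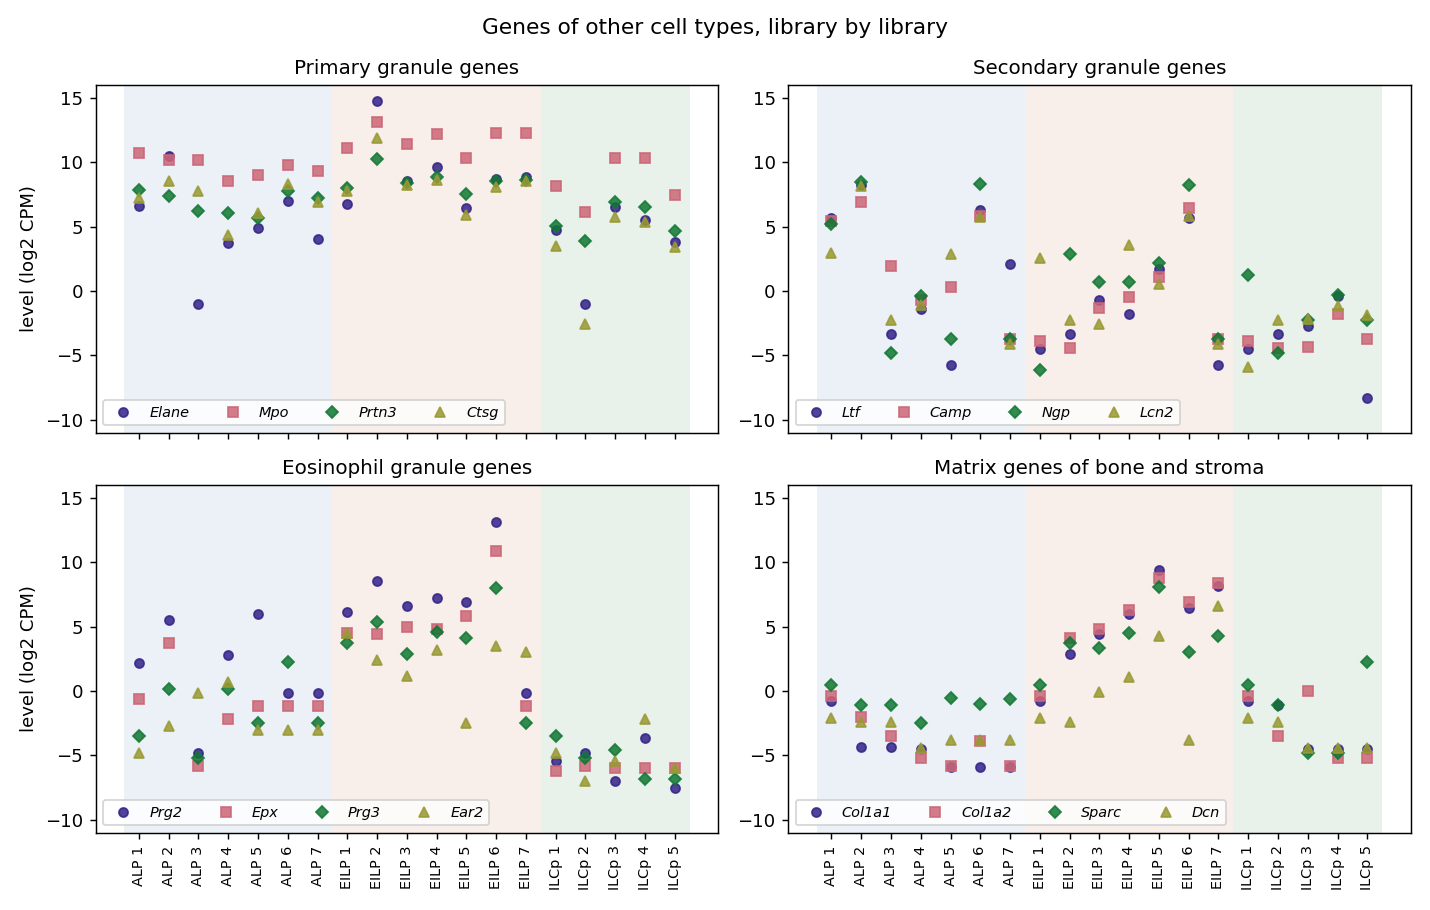
Levels (log2 CPM, vertical axis) of 4 genes each of primary granules, secondary granules, eosinophil granules and bone or stroma matrix in the 19 libraries (horizontal axis, shaded by stage). Elane peaks in EILP 2 (14.73), Prg2 in EILP 6 (13.12) and Col1a1 in EILP 5 (9.43), while secondary granule genes are high in EILP 6 and in ALP 2 and 6. The floor of a gene differs between batches, so heights in different batches compare only loosely.

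Erythroid and monocyte genes gave no calls and also varied within EILP. Of 13 erythroid genes, 9 were highest in EILP 6 and 4 in EILP 1, and the summed level was 205 to 2502 CPM in EILP, 199 to 512 CPM in ALP and 283 to 2188 CPM in ILCp. Klf1, the erythroid master factor, was 6.55 log2 CPM in EILP 1 and 6.56 in EILP 6, and −4.46 to 3.71 in the others. Of 14 monocyte and macrophage genes, 6 were highest in EILP 2 and 4 in EILP 6. Lyz2, lysozyme M, was 9.16 log2 CPM in EILP 2, 8.79 in EILP 6 and 3.24 to 6.23 in the other 5. Csf1r, the receptor of M-CSF, was 2.04 to 6.61 log2 CPM in EILP, 4.20 to 9.02 in ALP, and not called. Of 11 plasma cell genes Sdc1 was the only call, below, and Xbp1, a factor of antibody secretion, was 7.46 ± 0.37 log2 CPM in EILP, 7.82 ± 0.37 in ALP and 7.23 ± 0.71 in ILCp, and not called. Of 44 immunoglobulin heavy chain variable segments, 10 were called below and none above, against 1.23% and 0.967% of all genes. These segments resemble each other in sequence, so single values are uncertain.

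The spread within EILP was uneven across genes. The median SD over EILP libraries was 0.67 on the log2 scale over all genes and 0.38 over the 9303 genes above the median level, against 0.75 and 0.43 in ALP. It was 2.44 for the eosinophil, 2.42 for the stroma, 2.29 for the erythroid, 2.04 for the monocyte and 1.78 for the neutrophil granule genes. In ALP the same lists had medians of 2.42, 1.70, 2.46, 1.67 and 3.19, and of these 5 lists the stroma genes had the largest excess of EILP over ALP. These spreads were not tested against each other. Nfil3, Grb2 and Nfkb1, at SDs of 0.09, 0.15 and 0.16 log2 units, varied little across the same libraries.

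Fewer genes were called without the libraries that were, as deposited, richest in such RNA. Without EILP 2 and EILP 6, 68 genes were called above and 114 below, and 16 and 33 passed against each stage. Without EILP 5 and EILP 7 these counts were 69, 142, 18 and 40. Both fits had fewer samples and lost the only EILP library of a batch, EILP 2 of batch 2 or EILP 5 of batch 4. The lower counts can therefore not be tied to the RNA of those libraries. Grb2 (1.23 and 1.14 on the log2 scale), Nfkb1 (1.67 and 1.76), Nfil3 (2.71 and 2.59) and Mycn (2.17 and 2.01) stayed called above in both fits, and Tgfbr2 (−1.99 and −2.41), Ets1 (−3.27 and −3.60) and Sdc1 (−6.66 and −8.25) below. The part of the granule, eosinophil and stroma RNA in the other differences was not tested.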

How the data were processed

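The authors' deposited table holds log2 values of 18607 genes in 19 libraries. RNA from RNeasy plus micro columns was amplified with the SMARTer Ultra Low v3 kit and made into libraries with Nextera XT, per the labels' protocols, and these kits do not mark strand. The submitters' processing notes name mm10, STAR 2.4.0h, limma, edgeR and bcl2fastq 1.8.4, without role or order. How reads were counted, and on which annotation, is not given in the sources used here. From the values, the deposited log2 numbers are log2 CPM (summing to 908573 to 1035200 CPM per library) with like distributions in all libraries and no batch differences left. No header or label records this. It leaves differences from a model with batch unchanged and makes SDs within groups too small.

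All 19 libraries entered 1 limma model (limma 3.58.1 in R 4.3.3, two-sided, variances moderated along a trend with level) with group and batch as fixed terms and 12 residual degrees of freedom. EILP was tested against the average of the ALP and ILCp means, and against each, with Benjamini-Hochberg adjustment over 18607 genes. Group estimates equal the group means. The pattern and its marker genes, and the 30 gene lists (454 of 478 entries in the table), were chosen with earlier results of these data known, and 12 families after the values were seen. The rule took Nfil3, Mycn, Sdc1 and Il17re, the 10 genes above and 10 below with the smallest p among those past each stage whose highest group mean is above the median of all genes, up to 3 called members of each list in each direction, and the 4 most abundant members in EILP of 8 marker lists. Chosen outside it, after their values were seen, were Nfkbia, Nfkbiz, Smad1, Dusp5, Foxo1, Klf3, Cdkn1c, Tgtp1, Iigp1, Cpb1, Dlk1, Nccrp1, Emp1, Evl, Cmah, Rnase4, Samsn1, Stk17b, Arhgef3, Jakmip1, the mitochondrial and translation genes except Wdr12, the uncalled relatives of the markers, Ltf, Camp, Ngp, Lcn2, Dcn, Bglap, Klf1, Tcf7 and Sparc. Simulated data in which 200 genes changed served to test the fit. Alternatives were other scalings, models, filters and each library left out. Leaving out EILP 2 and 6, EILP 5 and 7, or batch 3 was chosen after seeing the data. Positions are from GENCODE vM21, promoters from RefSeq.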

Additional observations from a re-analysis of the deposited data

Results flagged for a closer look

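Of 234 gene and group pairs examined for a library that stands apart from the rest of its group, 22 did so, 7 in EILP, 7 in ALP and 8 in ILCp. Chance gives about 1 in 20, a rate that does not hold for floor values, whose level differs between batches. In EILP, the level of EILP 2 stood apart for Elane (14.73 log2 CPM), Hdc (9.44), Creld2 (6.71, a chaperone-like protein of the endoplasmic reticulum) and Spp1 (−2.20, at the floor). EILP 1 stood apart for Dusp6 (−0.021 log2 CPM), EILP 5 for Tpm4 (6.28) and EILP 6 for the transferrin receptor Tfrc (8.93).

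In ALP, levels that stood apart were those of ALP 1 for Col1a1 (−0.78 log2 CPM, the floor of its batch), ALP 2 for Flt1 (−0.27) and Spp1 (5.05), ALP 3 for Irf7 (6.57), ALP 4 for Dhrs2 (−5.97, also the floor of its batch) and Itga2b (−0.61), and ALP 6 for Notch1 (6.74). In ILCp they were ILCp 1 for Flt4 (−3.08 log2 CPM), ILCp 2 for Flt1 (−6.20), Ctsg (−2.59), Siglecf (−2.85), Lyz2 (−2.52) and Creld2 (3.72), and ILCp 5 for Tgtp2 (7.47) and Itga2b (0.24). The levels of Flt4 in ILCp 1 and of Flt1 and Siglecf in ILCp 2 were the floors of their batches.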

How the results depend on the processing

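The main counts were 180 genes above both stages and 228 below, and 34 and 51 with each stage tested. In the same order they were 1185, 1064, 297 and 282 with no batch term, 2131, 1663, 773 and 709 with batch as a random effect (consensus correlation −0.24), 27, 59, 10 and 21 in batches 1, 2 and 4 alone, where fewer samples enter, and 96, 139, 17 and 25 in limma without trend. Without EILP 2 and EILP 6 they were 68, 114, 16 and 33. Counts that moved by over 1.5 times were also 429 above and 91 with each stage tested under median centring, 100 and 19 above when a difference of at least 1 was asked for, 15 and 23 with each stage tested without the Plzf-cre-GFP libraries, and 69, 142 and 18 without EILP 5 and EILP 7. Because the deposited values hold no batch differences, errors are too small in the fits with no batch term or a random one. Their larger counts are not equal alternatives to the main ones. The cause of the shifts was not tested. Leaving out each library in turn gave 81 to 186, 131 to 223, 17 to 40 and 29 to 52 genes. The lowest counts came without EILP 5, shared by ILCp 2 for 29. EILP 5 is the only EILP library of batch 4. That fit therefore has no direct comparison with EILP in the batch that holds 3 of the 5 ILCp. Counts also moved without EILP 2 (112 and 22 above), EILP 7 (111 above) and ALP 4 (22 and 31 with each stage tested). Of 91 called genes examined singly, 50 kept the call without each library and 19 of these in every other setting too. Among uncalled genes, Hlf (0.14) and Il17rb (−0.24) changed sign in batches 1, 2 and 4 alone and Myc (0.013) with median centring.

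The replicate block in place of batch gave 522, 542, 117 and 134 genes. Samples of the same number had correlations of −0.640 to 0.116 after group means were taken off. ALP 1, EILP 1 and ILCp 1 make up batch 1, and the values hold no batch differences, which pushes such correlations down. They therefore cannot decide whether the numbers pair the samples. Total counts are unknown, so the precision of single values near the floor could not be given.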
